A study of Mus musculus with 12 samples.

Results

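The cell cycle and DNA replication genes of diabetic wounds are 44 genes chosen by symbol from the count table, of 29956 named genes in all. They were read in 2 groups, 16 S-phase genes that copy the DNA or supply its building blocks and 28 G2/M genes that prepare and carry out mitosis. All 44 were found under their listed symbols and all passed the filter on low counts. RNA was sequenced from skin of B6.BKS(D)-Leprdb/db mice, which lack a working leptin receptor and become obese and diabetic. Full-thickness biopsy wounds on the back received Alcaligenes faecalis (4 mice), Staphylococcus aureus (4 mice) or a vehicle of PBS with 10% glycerol (4 mice), and skin was frozen on day 3; for the bacteria the labels name PBS without glycerol. Every group carries the same genotype and none is unwounded or free of diabetes, so each comparison is between treatments of a diabetic wound. The study's title concerns re-epithelialization of these wounds, to which keratinocyte migration and division both contribute.

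A dividing cell first copies its DNA in S phase and then separates the copies in mitosis. Entry into S phase is driven by cyclin E and E2F factors, which switch on the helicase, polymerase and nucleotide genes, while the mitotic genes are switched on later by the MuvB complex with B-Myb and then FOXM1, through a promoter element called the CHR that often stands near CCAAT boxes. In a skin wound, keratinocytes behind the migrating edge, fibroblasts, endothelial cells and some leukocytes divide, whereas mature neutrophils do not.

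Promoter windows were read for the members because the genes of each phase are classically controlled through shared elements. The RefSeq table (GRCm38.p6) held a window of 300 bases, 250 before and 50 after a gene's start, for 36 of the 44 members; those without an entry are Ccne2, Gins2, Mcm4, Ccna2, Foxm1, Aurkb, Tpx2 and Kif20a. Both strands were searched for the E2F core (TTTNNCG with C or G at each N), the CHR (TTTGAA or TTCGAA) and the CCAAT box (CCAAT). The CHR stood in 20 of 25 windows of G2/M members (80%), in 3 of 14 windows of S-phase members (21.4%) and in 19.2% of all 32851 windows in the table. The CCAAT box stood in 22 of 25 G2/M windows (88%), 10 of 14 S-phase windows (71.4%) and 37.4% of all windows. The E2F core stood in 4 of 25 G2/M windows (16%), 5 of 14 S-phase windows (35.7%) and 6.7% of all windows. Mcm7, Prc1 and Ect2 have a pair of windows each, which in Prc1 and Ect2 overlap, and a match is a description of letters, not of a bound site.

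**Figure D1:**
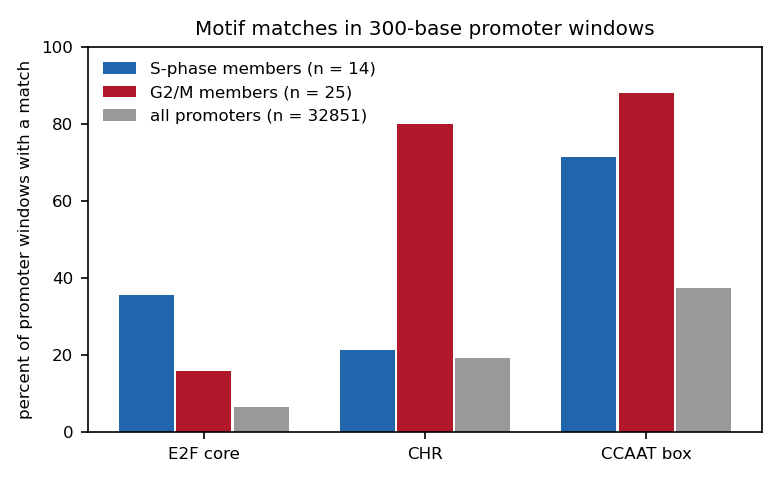
Percent of promoter windows (y axis) that hold at least 1 match to the E2F core, the CHR or the CCAAT box on either strand, for S-phase members, G2/M members and all windows of the table. The CHR bar of the G2/M members stands at 80%, against 21.4% for S-phase members and 19.2% for all windows.

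The windows of Rrm2, Mcm3, Cenpf and Cdk1 are shown because these were the S-phase and G2/M members with the smallest adjusted p that held a searched element. They run 5′ to 3′ on the gene's strand, and capitals mark the matches: CCAAT or its complement ATTGG, the CHR TTTGAA, and in Mcm3 and Cdk1 the E2F core on either strand. No matches overlap in these windows. The window of Tyms held no match.
Rrm2 (chr12:24708004-24708303, + strand): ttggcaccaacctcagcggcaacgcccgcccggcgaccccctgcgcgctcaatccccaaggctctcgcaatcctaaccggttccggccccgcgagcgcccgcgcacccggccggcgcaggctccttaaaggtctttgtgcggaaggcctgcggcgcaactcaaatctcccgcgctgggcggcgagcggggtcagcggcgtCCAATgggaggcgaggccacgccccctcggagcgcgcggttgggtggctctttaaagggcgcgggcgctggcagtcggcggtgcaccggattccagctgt
Mcm3 (chr1:20820263-20820562, - strand): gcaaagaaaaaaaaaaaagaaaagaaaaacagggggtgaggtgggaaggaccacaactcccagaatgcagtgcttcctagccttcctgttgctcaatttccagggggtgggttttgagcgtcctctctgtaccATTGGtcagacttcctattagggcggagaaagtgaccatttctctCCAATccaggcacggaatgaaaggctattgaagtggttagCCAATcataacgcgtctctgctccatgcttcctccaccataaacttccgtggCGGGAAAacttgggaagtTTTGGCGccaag
Cenpf (chr1:189688037-189688336, - strand): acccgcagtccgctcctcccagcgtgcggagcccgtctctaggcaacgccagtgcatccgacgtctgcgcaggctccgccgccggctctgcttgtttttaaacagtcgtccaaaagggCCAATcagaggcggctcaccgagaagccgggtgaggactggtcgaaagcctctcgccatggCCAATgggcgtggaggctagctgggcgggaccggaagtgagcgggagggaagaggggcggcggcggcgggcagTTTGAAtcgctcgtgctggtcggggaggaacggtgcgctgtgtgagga
Cdk1 (chr10:69352863-69353162, - strand): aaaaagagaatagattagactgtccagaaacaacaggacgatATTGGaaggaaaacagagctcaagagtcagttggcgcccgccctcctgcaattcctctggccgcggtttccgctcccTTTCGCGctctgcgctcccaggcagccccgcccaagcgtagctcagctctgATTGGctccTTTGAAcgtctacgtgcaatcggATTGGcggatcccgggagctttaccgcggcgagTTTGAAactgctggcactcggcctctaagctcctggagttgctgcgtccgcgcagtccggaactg
Rrm2 shows 1 CCAAT box upstream of the start and neither other element, whereas Mcm3 shows 3 CCAAT boxes and 2 E2F cores, both within the last stretch of the window. Cenpf shows 2 CCAAT boxes and 1 CHR, and Cdk1 shows 3 CCAAT boxes, 2 CHR and 1 E2F core.

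Libraries held 42.2 to 71.3 M (mega) estimated counts with A. faecalis, 38.4 to 58.4 M with S. aureus and 51.9 to 62.4 M with vehicle. Vehicle replicate 1 stood apart from its group in the cell cycle genes. It was the highest vehicle library for 43 of the 44 members (97.7%), while it was the highest vehicle library for 20.1% of all genes tested, and its level was 1.05 to 2.18 times the mean of the other vehicle libraries (median 1.39). A. faecalis replicate 1 was the highest of its group for 37 of 44 members (84.1%, against 29.5% of all genes), with a median ratio of 1.28, and A. faecalis replicate 4 was the lowest for 29. Keratinocytes, which define skin, were present in every library: their 8 basal markers summed to 1485 to 2950 CPM, estimated counts per M after TMM scaling of the library totals. Vehicle replicate 3 had the highest adipocyte marker sum, 6362 CPM, against 1090 to 2682 CPM in the other 11 libraries. Results that rest on these libraries are given with and without them. The 3 comparisons share libraries, so they are not independent.

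A list score averages the log2 CPM of the members, each taken relative to its own mean across all 12 libraries. On it the S-phase genes stood at 0.058, -0.201, -0.138 and -0.225 in A. faecalis replicates 1 to 4, at 0.212, 0.141, 0.147 and 0.27 in S. aureus replicates 1 to 4, and at 0.181, -0.073, -0.193 and -0.179 in vehicle replicates 1 to 4. Every S. aureus library lay above every A. faecalis library, and the vehicle libraries spread over both, with replicate 1 among the S. aureus values and the other 3 among the A. faecalis values. The G2/M score was 0.084, -0.306, -0.174 and -0.469 with A. faecalis, 0.317, 0.173, 0.225 and 0.362 with S. aureus, and 0.375, -0.123, -0.235 and -0.228 with vehicle. The layout was the same, and vehicle replicate 1 had the highest G2/M score of the 12 libraries. The S. aureus libraries were the most alike: the median SD between replicates (log2) was 0.243 with A. faecalis, 0.116 with S. aureus and 0.307 with vehicle for G2/M members, and 0.156, 0.0904 and 0.203 in that order for S-phase members, beside 0.195, 0.183 and 0.266 for all genes tested.

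**Figure D2:**
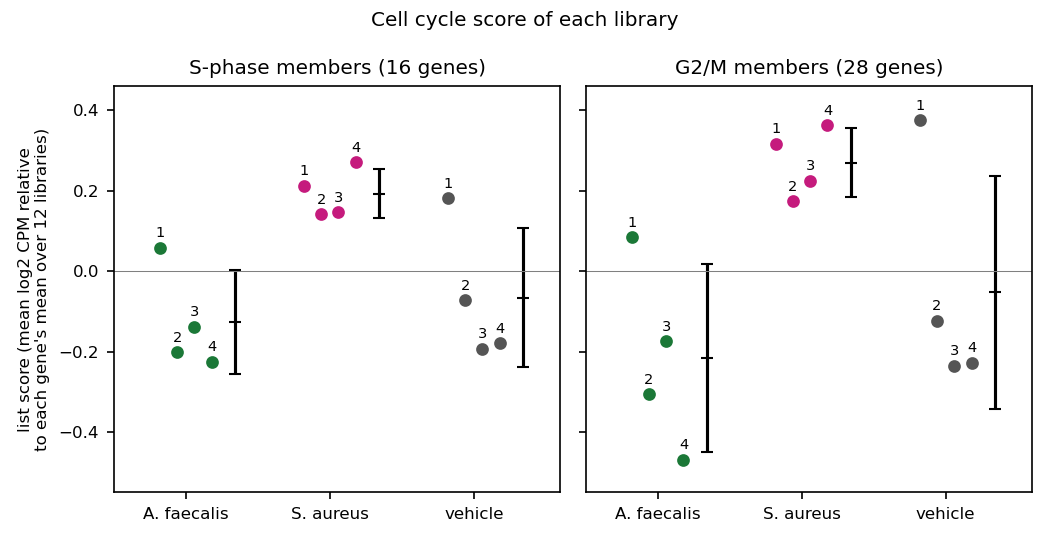
List score of each library (y axis, mean log2 CPM relative to each gene's mean over the 12 libraries) for S-phase members on the left and G2/M members on the right, by treatment, with replicate numbers at the points and mean ± SD (n = 4) as bars. All S. aureus points lie above all A. faecalis points, and vehicle replicate 1 lies apart from the other vehicle points, at 0.181 and 0.375.

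Between the bacteria, the cell cycle genes were lower with A. faecalis. EdgeR called 10 of the 44 members, all lower with A. faecalis than with S. aureus (22.7%, where 7.62% of the 18218 genes tested were called lower): Rrm2, Tyms, Mcm2 and Mcm3 of 16 S-phase genes, and Cenpf, Cdk1, Cdc20, Plk1, Top2a and Ube2c of 28 G2/M genes. The fold change was below 0 in 15 of 16 S-phase members, E2f1 being the exception, and in all 28 G2/M members, beside 47.3% of all genes tested. The median log2 fold change was -0.32 over the S-phase members and -0.46 over the G2/M members, and 0.02 over all genes. The libraries of both groups did not overlap in 9 S-phase and 16 G2/M members, all lower with A. faecalis (56.8% of the members, beside 11.8% of all genes). A called gene is one with a Benjamini-Hochberg adjusted p under 0.05 over all genes in edgeR's quasi-likelihood test. Between the bacteria, a gene that fell is one lower with A. faecalis than with S. aureus, whatever its level with vehicle. In bulk skin, fewer dividing cells and less of these RNAs per cell cannot be told apart.

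The clearest S-phase difference was in the nucleotide genes. Rrm2, the small subunit of the ribonucleotide reductase that makes deoxyribonucleotides, was at 39.2, 30.4, 32.9 and 28.6 CPM with A. faecalis, against 53.5, 55.7, 53.8 and 55.5 CPM with S. aureus. The groups stood well apart and the S. aureus libraries were nearly level. Rrm2 was lower by 0.74 in log2 units with A. faecalis than with S. aureus (SE 0.11, edgeR adjusted p = 0.00251). Tyms, thymidylate synthase, was at 38.6, 32.3, 34.3 and 31.2 CPM with A. faecalis and 49.5, 49.0, 50.5 and 56.0 CPM with S. aureus. These groups did not overlap either, and Tyms fell by 0.59 (SE 0.10, edgeR adjusted p = 0.00435). Leaving out any 1 of the 12 libraries kept both calls, with edgeR adjusted p up to 0.0127 for Rrm2 and 0.0192 for Tyms. The large reductase subunit Rrm1 had 86.2, 65.2, 72.5 and 64.5 CPM with A. faecalis and 95.3, 81.8, 89.8 and 93.2 CPM with S. aureus, a log2 fold change of -0.32 that was not called (edgeR adjusted p = 0.103), with A. faecalis replicate 1 inside the S. aureus range.

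The replicative helicase is a ring of Mcm2 to Mcm7 that opens the DNA at origins, with Cdc45 and the GINS subunit Gins2 as partners and Cdc6 as its loader. Mcm2 was at 35.8, 30.7, 32.4 and 27.9 CPM with A. faecalis and 40.3, 39.9, 39.7 and 45.7 CPM with S. aureus, and fell by 0.39 (SE 0.11, edgeR adjusted p = 0.043). Mcm3 was at 43.0, 35.7, 37.2 and 35.7 CPM with A. faecalis and 45.8, 51.8, 45.8 and 45.4 CPM with S. aureus, and fell by 0.32 (SE 0.08, edgeR adjusted p = 0.0302). In both genes the groups did not overlap, with A. faecalis replicate 1 nearest to the S. aureus libraries. Mcm6 had 57.1, 45.2, 47.3 and 40.9 CPM with A. faecalis, below 64.0, 58.1, 62.6 and 67.9 CPM with S. aureus, without a call (log2 fold change -0.41, SE 0.13, edgeR adjusted p = 0.0636). Cdc45 had 10.7, 8.73, 7.90 and 8.21 CPM with A. faecalis and 10.7, 11.6, 11 and 12.3 CPM with S. aureus, again without a call (-0.36, SE 0.11, edgeR adjusted p = 0.0583). Mcm4, Mcm5, Mcm7, Cdc6 and Gins2 stood at -0.27, -0.20, -0.33, -0.37 and -0.24 in log2 fold change, without a call.

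Among the members, no regulator of S-phase entry was called between the bacteria, nor was the sliding clamp. Ccne1, a cyclin E that starts S phase, had 9.47, 7.12, 7.94 and 9.35 CPM with A. faecalis and 10.6, 10.1, 10.5 and 10.7 CPM with S. aureus. Its groups did not overlap, and it was not called (log2 fold change -0.30, edgeR adjusted p = 0.0711). The other cyclin E, Ccne2, had a log2 fold change of -0.30 with overlapping groups, also without a call. E2f1, the transcription factor upstream of these genes, had 23.4, 26.3, 25.1 and 27.3 CPM with A. faecalis and 24.0, 23.1, 21.9 and 23.9 CPM with S. aureus, a log2 fold change of 0.14 (SE 0.07, edgeR adjusted p = 0.239). Pcna, the clamp that holds polymerases on DNA and also serves in repair, had 92.5, 99.2, 88.8 and 94.6 CPM with A. faecalis and 94.0, 86.9, 108 and 96.2 CPM with S. aureus. Its groups lay on top of each other (log2 fold change -0.04, SE 0.09), and the sign of this difference turned without S. aureus replicate 3 (0.025).

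Among G2/M genes the largest difference was in Cenpf, a kinetochore protein of mitosis, at 19.1, 10.7, 19.5 and 13.3 CPM with A. faecalis and 40.8, 38.5, 33.7 and 48.4 CPM with S. aureus. Cenpf was lower by 1.37 in log2 units with A. faecalis than with S. aureus (SE 0.33, edgeR adjusted p = 0.0211). It was also the most uneven member, with vehicle libraries at 48.1, 12.6, 26.4 and 27.1 CPM. Cdk1, the kinase that drives entry into mitosis, was at 33.1, 26.6, 27.9 and 24.0 CPM with A. faecalis and 42.4, 37.4, 37.2 and 42.1 CPM with S. aureus. It fell by 0.51 (SE 0.13, edgeR adjusted p = 0.027), with no overlap between the groups. Its partner Ccnb1, cyclin B1, had 28.8, 19.7, 20.6 and 16 CPM with A. faecalis and 31.0, 31.1, 28.9 and 32.4 CPM with S. aureus. The log2 fold change of -0.54 (SE 0.17) was not called (edgeR adjusted p = 0.0603), and A. faecalis replicate 1 nearly reached the lowest S. aureus library.

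The other called G2/M members act later in mitosis or on the chromosomes. Cdc20, which activates the anaphase-promoting complex, was at 21.5, 19.0, 19.0 and 15.5 CPM with A. faecalis and 26.4, 26.4, 25.1 and 30.4 CPM with S. aureus, and fell by 0.53 (SE 0.14, edgeR adjusted p = 0.033). Ube2c, the ubiquitin-conjugating enzyme of that complex, was at 13.8, 11.5, 12.2 and 10.8 CPM with A. faecalis and 17.8, 16.1, 14.8 and 16 CPM with S. aureus, and fell by 0.42 (SE 0.13, edgeR adjusted p = 0.0469). Plk1, a kinase of spindle assembly, was at 21.1, 17.6, 20.1 and 15.9 CPM with A. faecalis and 26.3, 23.4, 27.1 and 31.5 CPM with S. aureus, and fell by 0.53 (SE 0.16, edgeR adjusted p = 0.0469). Groups did not overlap in any of these genes. Top2a, the topoisomerase that untangles sister chromosomes, was at 109, 81.6, 91.6 and 81.8 CPM with A. faecalis and 132, 128, 135 and 125 CPM with S. aureus, and fell by 0.52 (SE 0.16, edgeR adjusted p = 0.0486).

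The widely used proliferation marker Mki67 differed least of the 28. It had 217, 180, 202 and 176 CPM with A. faecalis and 226, 199, 212 and 240 CPM with S. aureus, a log2 fold change of -0.18 (SE 0.16, edgeR adjusted p = 0.496) with overlapping groups. Foxm1, the transcription factor of late G2/M genes, had 33.9, 25.3, 25.6 and 19.4 CPM with A. faecalis and 39.0, 35.5, 31.6 and 39.0 CPM with S. aureus. Its log2 fold change of -0.47 (SE 0.18) was not called (edgeR adjusted p = 0.107). The uncalled G2/M members ranged in log2 fold change from -0.54 in Kif20a and Ccnb1 to -0.18 in Mki67. They included the Aurora kinases Aurka and Aurkb (-0.46 and -0.44), and the complex partners of Aurkb, Birc5 and Cdca8 (-0.41 and -0.46). Also among them were the spindle checkpoint kinase Bub1 (-0.21) and its relative Bub1b (-0.29). The centromeric histone Cenpa (-0.49) and the kinesins Kif11 and Kif23 (-0.47 and -0.52) were others.

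**Figure D3:**
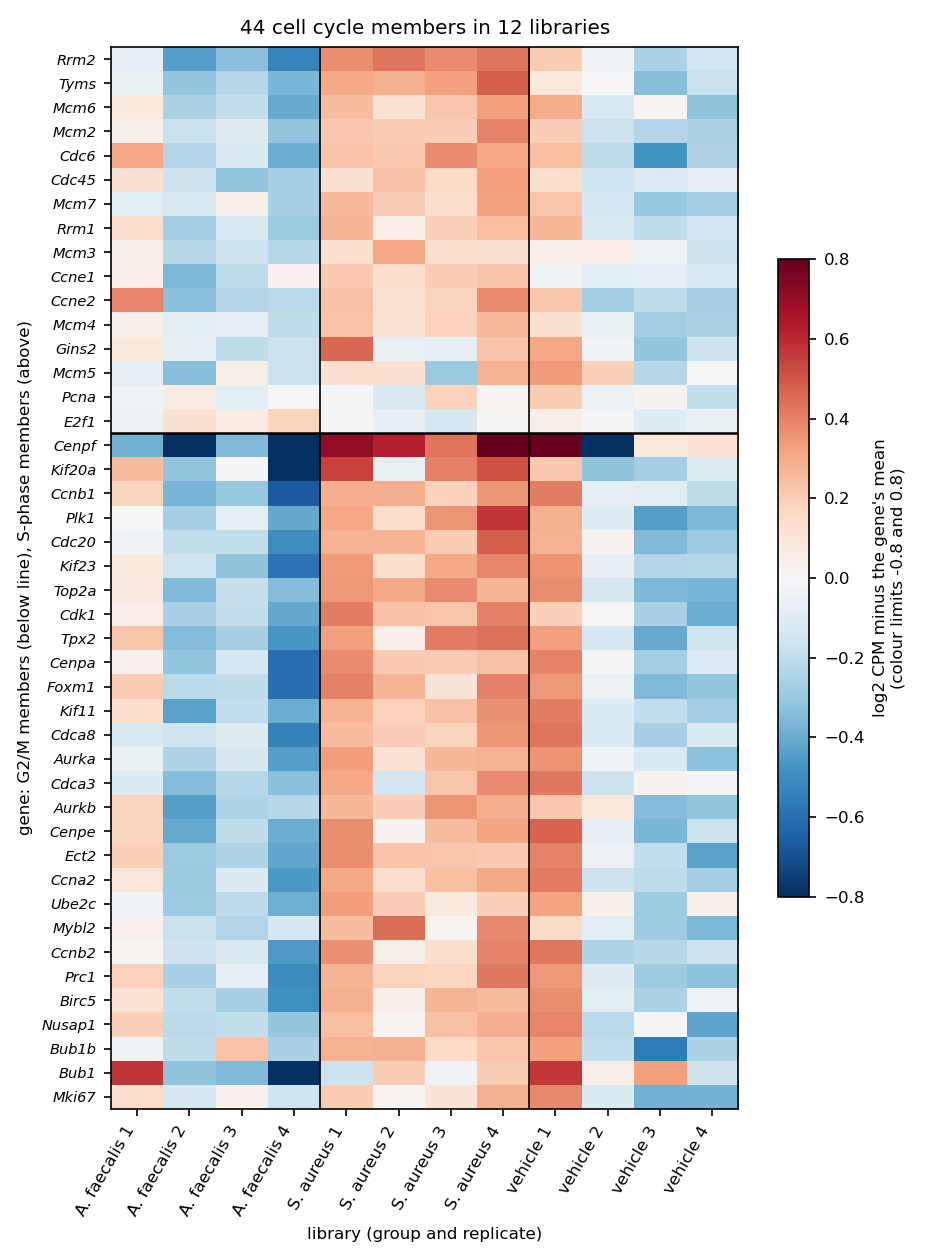
Log2 CPM minus each gene's mean (colour, limits -0.8 and 0.8) for the 44 members down the page, S-phase above the line and G2/M below, in the 12 libraries. The 4 S. aureus columns and vehicle replicate 1 are mostly red. A. faecalis replicates 2 and 4 and vehicle replicates 3 and 4 are mostly blue. The rows of Pcna and E2f1 are nearly without pattern.

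Of these 10 calls, 8 were lost when 1 library or another was left out. When A. faecalis replicate 2, A. faecalis replicate 4 or S. aureus replicate 4 was left out, the called members were Rrm2 and Tyms alone (2 S-phase and 0 G2/M). Without A. faecalis replicate 3 they were 2 S-phase and 1 G2/M members, without S. aureus replicates 1, 2 or 3 they were 3 and 1, 2 and 3, and 2 and 1, and without vehicle replicate 2 they were 3 and 3. Without vehicle replicate 4 they were 5 and 6. In these fits 1313 to 2471 of all genes were called in either direction, beside 2310 with all libraries. Leaving out A. faecalis replicate 1, a high library, worked the other way. Then 9 S-phase and 15 G2/M members were called, beside 6.77% of all genes called lower. Leaving out a library of that group for its high values widens the difference by construction. Without vehicle replicate 1 the calls were 7 and 16, beside 7.45%. Vehicle libraries enter this comparison only through the spread, scaling and gene filter that all groups share. Without vehicle replicate 3 the counts were 5 and 11, with 3457 of all genes called in either direction. DESeq2 called 9 and 16 with all libraries, where it called 19.1% of all genes in either direction. The adjusted p of the other 8 called members went up to between 0.0637 (Cenpf) and 0.137 (Plk1) in these fits, and their log2 fold changes stayed below 0.

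With S. aureus against vehicle, 2 members rose, both S-phase genes, and no G2/M member was called (4.55% of the members, where 3.87% of all genes were called higher). Tyms had 49.5, 49.0, 50.5 and 56.0 CPM with S. aureus, against 42.6, 40.1, 31.7 and 35.4 CPM with vehicle. With S. aureus it rose by 0.45 in log2 units (SE 0.10, edgeR adjusted p = 0.0267). Rrm2, at 53.5 to 55.7 CPM with S. aureus, had 47.6, 40.6, 34.8 and 37.5 CPM with vehicle, and rose by 0.45 (SE 0.11, edgeR adjusted p = 0.038). In both genes every S. aureus library was above every vehicle library. Leaving out S. aureus replicate 2, 3 or 4 ended the call of Tyms (edgeR adjusted p up to 0.0811), and that of Rrm2 ended without any 1 of 9 libraries (vehicle 2, 3 and 4, A. faecalis 2 and 3, all 4 S. aureus; adjusted p up to 0.0988).

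The remaining members leaned the same way without a call. The fold change was above 0 in 14 of 16 S-phase and 27 of 28 G2/M members (45.3% of all genes), with medians of 0.26 and 0.29 on the log2 scale and -0.04 over all genes. Of the 44 members 16 had an unadjusted p under 0.05 (9 S-phase and 7 G2/M), beside 27% of all genes in either direction. DESeq2 called 6 S-phase members and the G2/M members Cdk1, Mybl2 and Plk1 (3), beside 15.8% of all genes, and limma-voom called 2 and 0. Cdk1 had 42.4, 37.4, 37.2 and 42.1 CPM with S. aureus, against 36.4, 31.8, 26.6 and 24.2 CPM with vehicle, groups that did not overlap (log2 fold change 0.42, SE 0.13, edgeR adjusted p = 0.073). Mcm2 had 39.7 to 45.7 CPM with S. aureus, against 39.8, 30.8, 29.5 and 29.2 CPM with vehicle, where replicate 1 alone reached the S. aureus range (0.36, SE 0.11, edgeR adjusted p = 0.072). The exceptions in direction were Mcm5 (-0.01), E2f1 (-0.03) and Bub1 (-0.16), and Pcna stood at 0.02, a sign that turned under upper-quartile scaling (-0.008); the sign of E2f1 turned without vehicle replicates 1 or 2.

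Vehicle replicate 1 set much of the vehicle range. Groups did not overlap in 4 S-phase members and 1 G2/M member with all libraries (11.4% of the members, 7.56% of all genes higher with S. aureus). Against vehicle replicates 2 to 4 they did not overlap in 12 of 16 S-phase and 26 of 28 G2/M members (86.4% of the members, 9.95% of all genes), all higher with S. aureus. Top2a showed it plainly, with 132, 128, 135 and 125 CPM with S. aureus, against 135, 95.2, 81.1 and 80.4 CPM with vehicle. Without that library edgeR called 5 S-phase and 5 G2/M members higher, beside 2.3% of all genes, and the medians were 0.38 and 0.48. Leaving out a library that was chosen for its high values widens the difference by construction.

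**Figure D4:**
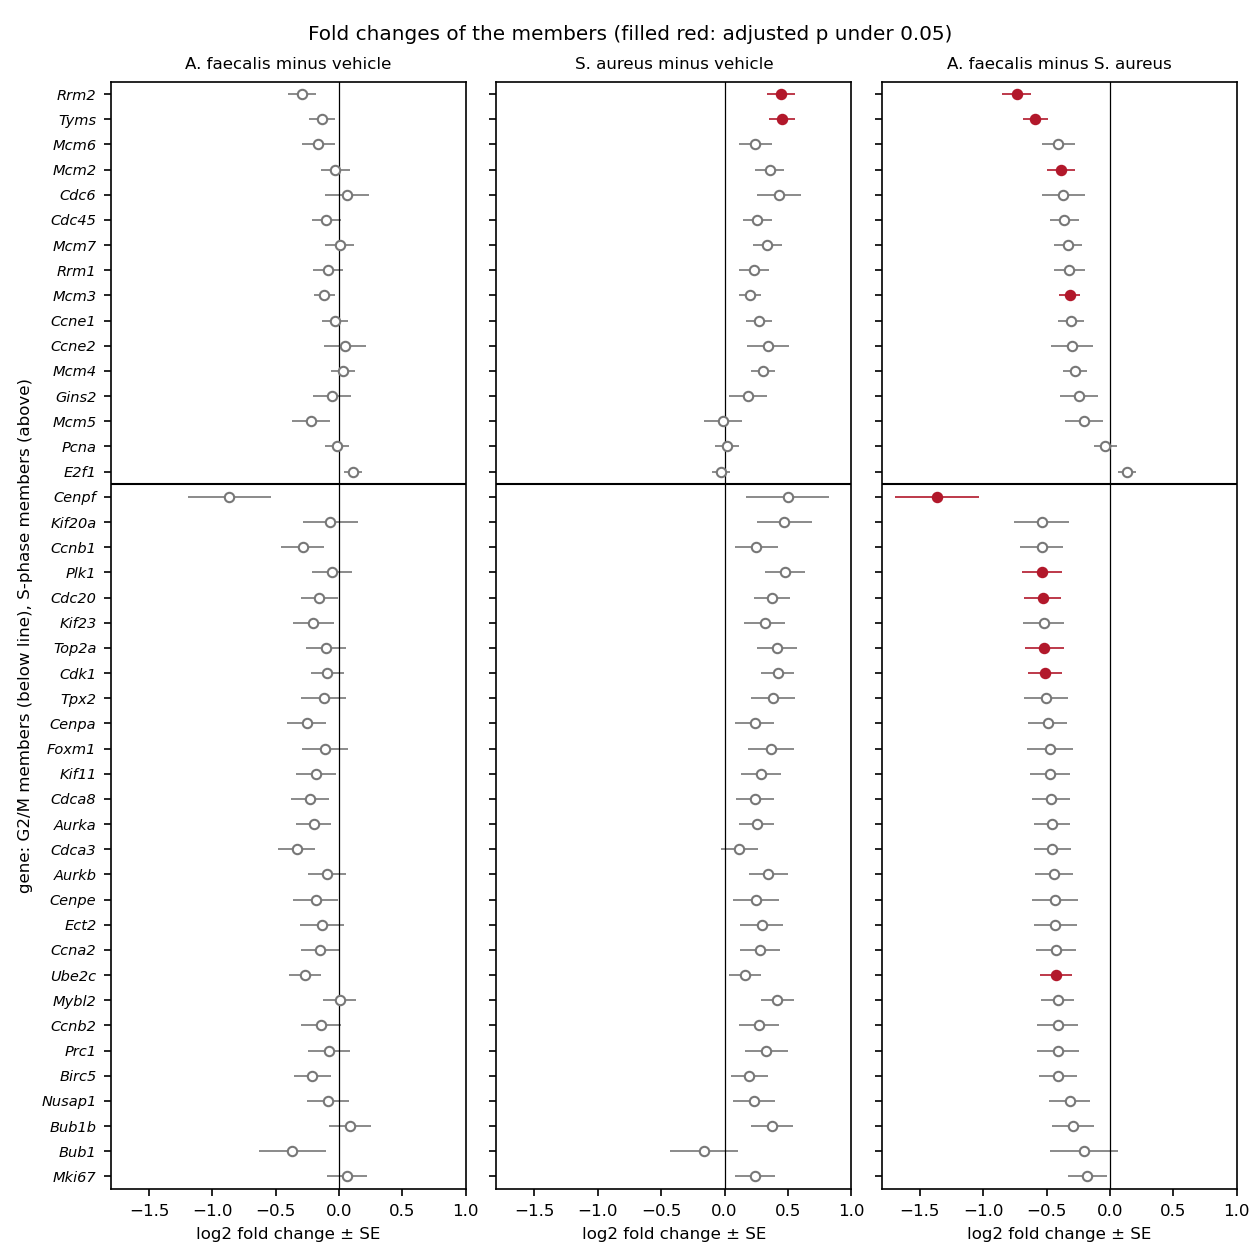
Log2 fold change ± SE (x axis) of each member for A. faecalis minus vehicle, S. aureus minus vehicle and A. faecalis minus S. aureus, S-phase members above the line and G2/M members below, with called genes in filled red. The right panel holds 10 called members, all left of 0, the middle panel 2, right of 0, and the left panel none.

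With A. faecalis against vehicle, no member was called, where edgeR called 0.011% of all genes. Of the members 3 had an unadjusted p under 0.05, beside 7.68% of all genes. DESeq2 and limma-voom also called 0 members (DESeq2 called 0.684% of all genes). The groups overlapped in all 44 members, while 1.49% of all genes were higher and 2.56% lower with A. faecalis without overlap. The fold change was below 0 in 11 of 16 S-phase and 25 of 28 G2/M members (56.2% of all genes), with medians of -0.05 and -0.14 on the log2 scale beside -0.03 over all genes. These medians turned to 0.058 and 0.035 without vehicle replicate 1, and went to -0.124 and -0.247 without A. faecalis replicate 1. Each of these libraries was high in its group, so leaving it out moves the medians by construction. Mki67 had 217, 180, 202 and 176 CPM with A. faecalis and 257, 182, 150 and 152 CPM with vehicle, so that replicate 1 lay above and replicates 3 and 4 below all A. faecalis libraries. Ccnb1 had 28.8, 19.7, 20.6 and 16 CPM with A. faecalis and 33.8, 24.2, 23.8 and 22.1 CPM with vehicle, each group with a high replicate 1. Rrm2 had 28.6 to 39.2 CPM with A. faecalis and 34.8 to 47.6 CPM with vehicle, and Pcna 88.8 to 99.2 CPM and 82.8 to 109 CPM. The SE of the members' log2 fold changes was 0.072 to 0.329, so a difference of the size seen in their medians was not detectable for most single genes.

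**Figure D5:**
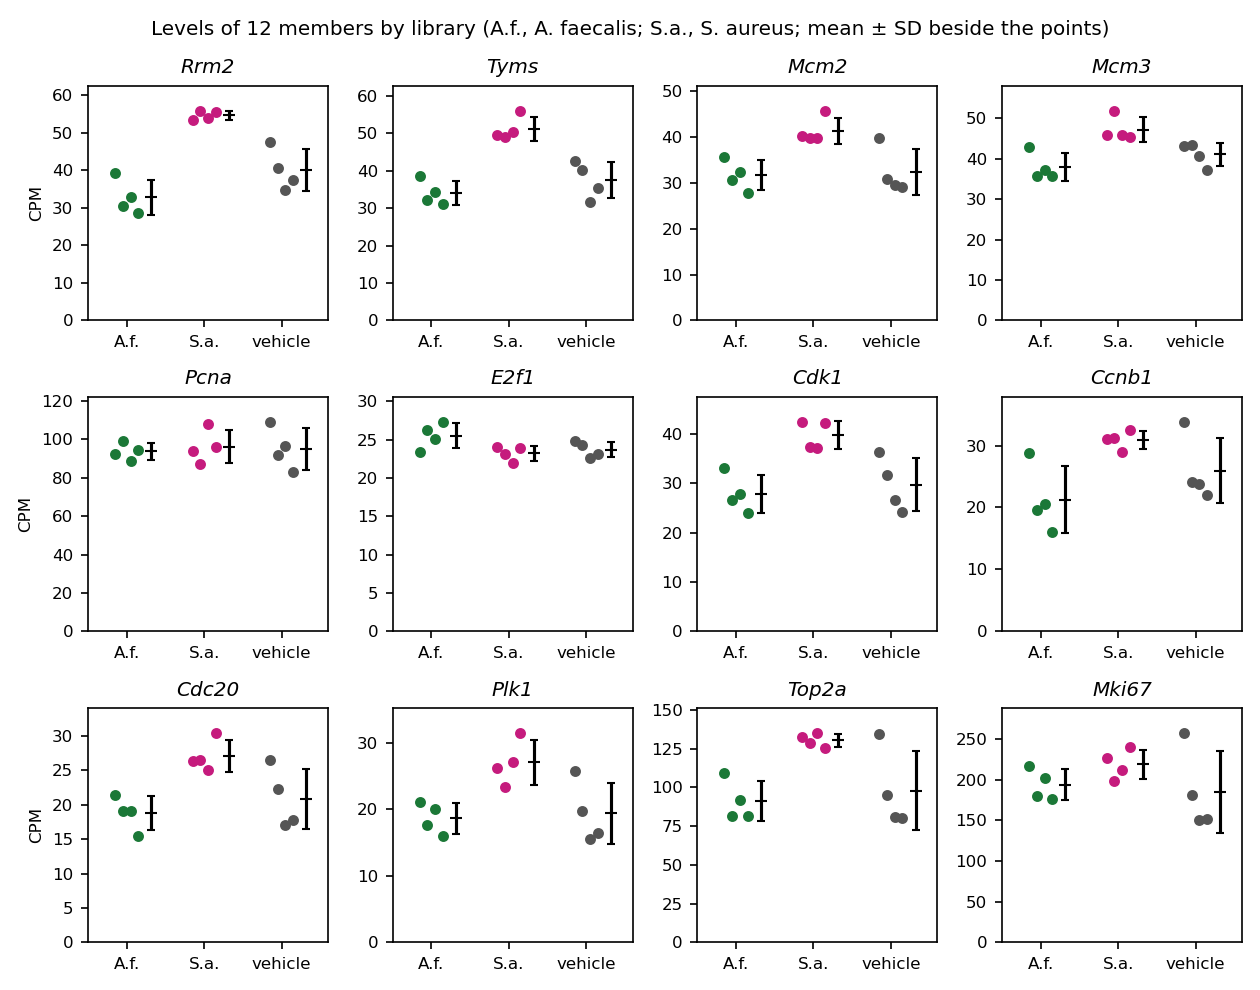
CPM (y axis, from 0) of 12 members in each library by treatment, with mean ± SD (n = 4) as bars beside the points. In Rrm2 and Tyms every S. aureus point lies above every other point, in Pcna and E2f1 the groups lie together, and in Mki67 and Top2a the highest vehicle point is replicate 1.

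By group means, 34 of the 44 members were ordered S. aureus, vehicle, A. faecalis from high to low (10 S-phase and 24 G2/M). With the vehicle mean taken over replicates 2 to 4, a choice made after seeing the data, this order held for 18 members (7 S-phase and 11 G2/M), and 24 were ordered S. aureus, A. faecalis, vehicle. With all libraries 7 had that order, among them Mki67, at 194 ± 19.0 CPM with A. faecalis, 219 ± 17.8 CPM with S. aureus, set beside 185 ± 50.1 CPM with vehicle (mean ± SD, n = 4 each). E2f1 alone had A. faecalis highest, at 25.5 ± 1.65 CPM with A. faecalis, 23.2 ± 0.978 CPM with S. aureus, set beside 23.7 ± 1.04 CPM with vehicle, and Mcm5 and Bub1 had vehicle highest (without vehicle replicate 1, 1 member did). Between vehicle and A. faecalis no member differed past the threshold, and between S. aureus and vehicle Rrm2 and Tyms alone did.

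Other genes of the same processes, from wider lists, were read the same way. Of 58 further replication and G1/S genes, 6 fell with A. faecalis relative to S. aureus (10.3%, where 7.62% of all genes did), with a median log2 fold change of -0.20; 0 were called with S. aureus against vehicle (10 at an unadjusted p under 0.05; median 0.15) and 0 with A. faecalis against vehicle (2; median -0.04). They were Ung, a uracil glycosylase (-0.52, edgeR adjusted p = 0.0224), the replication factor Mcm10 (-0.52), the licensing inhibitor Gmnn (-0.36), the repressor E2f8 (-0.45), Cdc25a and Uhrf1. Of 71 further mitosis genes, 8 fell and 1 rose with A. faecalis relative to S. aureus, with a median of -0.35. These were 11.3% called lower, beside 7.62% of all genes, and 1.41% called higher, beside 5.06% of all genes. With S. aureus against vehicle 2 rose (2.82%, where 3.87% of all genes were called higher), with a median of 0.26. Cdc25b, a phosphatase that activates CDK1, had means of 24.4 CPM with A. faecalis, 36.6 CPM with S. aureus, against 28 CPM with vehicle. It fell by 0.59 with A. faecalis relative to S. aureus (edgeR adjusted p = 0.00389) and rose by 0.39 with S. aureus against vehicle (edgeR adjusted p = 0.0393). The nuclear lamina gene Lmnb1 had 68.6, 219 and 91.3 CPM in the same order of groups (-1.68, adjusted p = 0.00815, and 1.26, adjusted p = 0.0421, by edgeR). Its vehicle libraries were at 58.8, 116, 45.6 and 145 CPM in replicates 1 to 4. Replicate 1 was thus not the highest vehicle library, unlike in 43 of the 44 members. Trip13, a checkpoint ATPase, and Depdc1b also fell between the bacteria (-0.64 and -1.05), and the one that rose was Espl1, separase (0.29, edgeR adjusted p = 0.0413). Cdc25b, Lmnb1 and Trip13 kept their calls between the bacteria whichever library was left out; Ung lost it without replicate 2 or 4 of either bacterium (up to 0.0651), and Espl1, named after its values were seen, without any 1 of 9 libraries (up to 0.123). Gmnn, Mcm10 and E2f8 each lost theirs without any 1 of 6 libraries, all from the bacteria groups (up to 0.0747, 0.0785 and 0.0859), and Depdc1b without replicate 3 of either bacterium (up to 0.056). Cdc25a was called in 6 and Uhrf1 in 4 of the 12 fits with 1 library left out (edgeR adjusted p up to 0.106 and 0.131). Against vehicle, the calls of Cdc25b and Lmnb1 were lost without 6 and 9 of the 12 libraries (adjusted p up to 0.102 and 0.117).

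Upstream of S phase, Myc and Cdk4 moved with S. aureus. Of 12 G1 cyclins, kinases and growth-entry genes, these 2 rose with S. aureus against vehicle and the same 2 were lower with A. faecalis than with S. aureus (16.7% each time, where 3.87% of all genes were called higher with S. aureus and 7.62% lower with A. faecalis). Myc, a transcription factor of cell growth, had means of 34 CPM with A. faecalis, 59.4 CPM with S. aureus, against 34.2 CPM with vehicle; its log2 fold changes of -0.80 between the bacteria (edgeR adjusted p = 0.00182) and 0.80 for S. aureus against vehicle (edgeR adjusted p = 0.00776) held whichever of the 12 libraries was left out. Cdk4, the kinase partner of cyclin D, had 110 CPM, 142 CPM and 111 CPM in that order of groups (-0.36, adjusted p = 0.0202, and 0.35, adjusted p = 0.0361, by edgeR), a call lost between the bacteria without replicate 3 or 4 of either one (up to 0.0681), and against vehicle also without S. aureus replicate 2 (up to 0.101). Ccnd1, cyclin D1, had 70.5, 91.8 and 81.0 CPM and was not called.

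Genes that restrain the cycle went in both directions. Of 24, 2 were higher and 3 lower with A. faecalis relative to S. aureus (of all genes 5.06% were called higher and 7.62% lower), and 2 were higher and 1 lower with S. aureus against vehicle (of all genes 3.87% were called higher and 2.97% lower). The retinoblastoma family members Rb1 and Rbl2, which hold back E2F, were higher with A. faecalis than with S. aureus (0.28, adjusted p = 0.0126, and 0.43, adjusted p = 0.0155, by edgeR), while Ccng2, Btg2 and the CDK inhibitor Cdkn1a were lower (-0.75, -0.999 and -0.94). Cdkn1a had 162 CPM with A. faecalis, 311 CPM with S. aureus, against 169 CPM with vehicle (adjusted p = 0.0313 between the bacteria and 0.0566 for S. aureus against vehicle, by edgeR). Its call and that of Btg2 were lost when A. faecalis replicate 1, 2 or 3, or S. aureus replicate 2, 3 or 4, was left out (up to 0.0871 and 0.0771), and that of Rbl2 without A. faecalis replicate 4 (0.0505). With S. aureus against vehicle Trp53 rose (0.49, edgeR adjusted p = 0.0136, a call kept whichever library was left out), Btg2 rose and Cdkn1c fell (-1.01, edgeR adjusted p = 0.0326); Btg2 lost that call without any 1 of 9 libraries (up to 0.122) and Cdkn1c if vehicle replicate 1 or one of S. aureus replicates 2 to 4 was left out (up to 0.103). Cdkn1b and Cdkn2a were not called in any comparison, Cdkn2a being at 0.405, 0.422 and 0.459 CPM.

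Markers of several cell types moved between the same groups. The 7 neutrophil markers summed to 1780 to 4212 CPM with A. faecalis and 9361 to 14870 CPM with S. aureus. With vehicle their sum was 718 to 8809 CPM. All 7 had a fold change below 0 between the bacteria, and 5 were called lower with A. faecalis (71.4%, where 7.62% of all genes were). The 8 monocyte and macrophage markers summed to 5085 to 7385 CPM with A. faecalis and 3379 to 4217 CPM with S. aureus. With vehicle their sum was 4045 to 6588 CPM. All 8 had a fold change above 0 between the bacteria, and 4 were called higher with A. faecalis (50%, where 5.06% of all genes were). Of 7 fibroblast markers, Pdgfra and Pdgfrb alone were called, lower with A. faecalis than with S. aureus and higher with S. aureus against vehicle. The list as a whole was split. Between the bacteria 5 had a fold change below 0 and 2 above 0, and for S. aureus against vehicle 4 were above 0 and 3 below 0. The summed level was 18090 to 21760 CPM with A. faecalis and 19750 to 24840 CPM with S. aureus. With vehicle it was 18600 to 30260 CPM. The 8 basal keratinocyte markers summed to 1523 to 1904 CPM with A. faecalis, 1485 to 2950 CPM with S. aureus, against 1948 to 2880 CPM with vehicle, with Krt15 the one called marker. The 5 endothelial markers summed to 857 to 1174 CPM with A. faecalis, 1224 to 1376 CPM with S. aureus and 768 to 1115 CPM with vehicle, so the S. aureus sums lay above all others. All 5 had a fold change below 0 between the bacteria without a call, and Pecam1 rose with S. aureus against vehicle. The 8 markers of immature neutrophils, whose earliest stages divide, summed to 69.4 to 152 CPM with A. faecalis, 203 to 465 CPM with S. aureus and 58.4 to 266 CPM with vehicle. All 8 had a fold change below 0 between the bacteria, and Ngp alone was called lower with A. faecalis (12.5%, where 7.62% of all genes were). Against vehicle, 7 had a fold change above 0 with S. aureus, and Camp alone was called higher (12.5%, where 3.87% of all genes were). None of the markers of these lists was at 0 in any library. Vehicle replicate 1, the library with high cell cycle genes, had the highest fibroblast sum of the 12 (30260 CPM) and a neutrophil sum of 2247 CPM, and A. faecalis replicate 1 had the lowest neutrophil sum of its group, 1780 CPM. Vehicle replicate 3 had the lowest neutrophil sum of all, 718 CPM, with low scores of -0.193 for S-phase and -0.235 for G2/M genes. The part of these markers in the cell cycle result was not tested.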

How the data were processed

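RNA of wounded skin from 12 mice was measured as stranded, ribosome-depleted total-RNA libraries, per the labels' protocols. The authors deposited 1 table of estimated counts per gene. Per the submitters' processing notes, kallisto 0.48.0, FastQC 0.12.1, R 4.1.3, DESeq2 1.34.0 and build GRCm39 were used, with no roles given; how transcripts were summed to genes, and the use of strand, are not given in the sources used here. Kallisto divides reads shared by similar transcripts, so levels of close paralogs carry that uncertainty. An entry without a gene name was left out (0.00909% to 0.0151% of a library). Each library is read as 1 mouse, from the design text.

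Estimated counts were rounded. All 12 libraries entered 1 edgeR 4.0.16 model (R 4.3.3) with a mean per group: TMM scaling, filterByExpr (minimum count 10, minimum total 15; 18218 genes kept), robust quasi-likelihood test, two-sided, Benjamini-Hochberg over all genes, threshold 0.05. CPM are on TMM-scaled library sizes, and scores use a prior count of 2. The tests were run on simulated counts whose changes were larger than those of most members. That run does not show how well changes of the members' size are found. Pairs of libraries of 1 group differed by 28 or more in chi-square per degree of freedom, so none looked like a repeat deposit. Alternatives were DESeq2 1.42.0 size factors or Wald test, upper-quartile scaling, limma-voom (limma 3.58.1), other filters, fits of 2 groups, a threshold of 0.1, a replicate block, another phase for Ccna2 and Mybl2, and each library left out. The members, phases, gene lists, motifs and alternatives were chosen with earlier results of these data known. Values in every A. faecalis and S. aureus library are given for 9 marker and driver genes. They are also given for the 6 members of each phase with the smallest adjusted p. Vehicle libraries are shown for only some of these genes, and Rrm1 is added after its values were seen. From each wider list up to 4 called genes per comparison are named with values, by smallest adjusted p. Of the further called genes some are named, alone or with values, and others are not named. Promoter sequences are RefSeq's for GRCm38.p6, and no coordinate was joined to the counts.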

Additional observations from a re-analysis of the deposited data

Results flagged for a closer look

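Of 138 sets of 4 libraries examined (44 members and 2 scores in 3 groups), 11 held a library far from the other 3 by Dixon's test (7.97%), where chance gives about 1 in 20; the sets share libraries and are not independent. In vehicle wounds replicate 1 was the far library each time, high for Ccne2 (18.3 CPM, the others 13.0 to 13.6), Mcm2 (39.8 CPM, the others 29.2 to 30.8), Rrm1 (94.7 CPM, the others 68.6 to 72.4), Ccna2 (62.0 CPM, the others 38.3 to 41.4) and Ccnb2 (25.8 CPM, the others 16.2 to 17.1). With A. faecalis, replicate 1 was high for Ccne2 (20.6 CPM, the others 12.5 to 13.5) and replicate 4 low for Cdca8 (9.82 CPM, the others 12.8 to 13.4). With S. aureus, Mcm2 was high in replicate 4 (45.7 CPM, the others 39.7 to 40.3), Mcm3 high (51.8 CPM, the others 45.4 to 45.8) and Birc5 low (22.4 CPM, the others 25.9 to 26.5) in replicate 2, and Ect2 high in replicate 1 (27.5 CPM, the others 24.5 to 24.9).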

How the results depend on the processing

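The direction of the medians between the bacteria and for S. aureus against vehicle held in every fit run, while the counts of called members moved. Between the bacteria (4 S-phase and 6 G2/M members), upper-quartile scaling called 2 and 2, DESeq2 9 and 16, a fit of these groups alone 7 and 18, and a threshold of 0.1 called 9 and 18; with no filter on low counts G2/M calls were 3. For S. aureus against vehicle (2 and 0), upper-quartile scaling called 1 S-phase member, DESeq2 6 and 3, the fit of these groups alone 0 S-phase members, and a threshold of 0.1 called 5 and 3. All genes called, in either direction, were 122 by DESeq2 for A. faecalis against vehicle. For S. aureus against vehicle they were 1246 in the main fit, 1298 with upper-quartile scaling and 2868 by DESeq2. They were 350 there in the fit of these groups alone and 2859 at 0.1. Between the bacteria they were 2310 in the main fit, 2335 with upper-quartile scaling and 3474 by DESeq2. There the fit of these groups alone called 3459, the threshold of 0.1 called 3650, and no filter gave 1929. With 1 library left out, counts ranged from 2 to 9 S-phase and 0 to 16 G2/M members between the bacteria, and from 0 to 5 of each phase for S. aureus against vehicle; all genes called ranged from 2 to 10 for A. faecalis against vehicle, 260 to 1750 for S. aureus against vehicle and 1313 to 3457 between the bacteria. Without vehicle and A. faecalis replicates 1 together, chosen after seeing the data for their high values, 11 S-phase and 24 G2/M members were called between the bacteria (6.74% of all genes called lower) and 8 and 10 for S. aureus against vehicle (2.31% called higher); 0 were called there for A. faecalis against vehicle. The replicate numbers are not known to pair the mice: same-numbered libraries correlated at 0.07 to 0.182 for A. faecalis with vehicle and -0.21 to 0.08 for S. aureus with vehicle, and 3, 1 and 0 of 8 libraries correlated best with their own number. As a replicate block the numbers gave 17 G2/M calls between the bacteria and 1 for S. aureus against vehicle. All genes called in either direction were then 2120 and 1038. Signs that turned were those of Pcna for S. aureus against vehicle (-0.008 with upper-quartile scaling, and -0.038 to 0.111 with 1 library left out, below 0 without S. aureus replicate 3 or vehicle replicate 4 at -0.037), Pcna between the bacteria (-0.083 to 0.025, above 0 without S. aureus replicate 3) and E2f1 for S. aureus against vehicle (-0.044 to 0.014, above 0 without vehicle replicate 1 or, at 0.001, replicate 2). The cause was not tested. With 4 mice per group, SEs of 0.072 to 0.332 on the log2 scale limit what single members can show.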
